A study of Caenorhabditis elegans with 6 samples.

Results

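Chemoreceptor genes code for membrane receptors, most of them predicted G protein-coupled receptors, with which the nematode Caenorhabditis elegans senses odours, tastes and pheromones. The genes described here carry the name of 1 of 21 chemoreceptor families (sra, srab, srb, srbc, srd, sre, srg, srh, sri, srj, srm, srr, srsx, srt, sru, srv, srw, srx, srxa, srz and str) and had at least 300 raw counts summed over all 6 libraries of the series. They were 59 genes of 1308 with such a name, in a table of 20190 genes. They were chosen by their summed counts over all strains, so their levels are a description, and their differences between strains are what was tested.

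RNA of whole first-stage (L1) larvae was sequenced for 3 strains with 2 libraries each. HW3826 carries maIs105 [col-19::gfp], in which col-19, an adult collagen gene, is tied to green fluorescent protein. GR1395 carries mgIs49, an array with mlt-10p::gfp::pest and ttx-3::gfp, which joins a reporter of the molting gene mlt-10 to one of ttx-3, a regulator of neuron identity. N2 is the wild type and carries neither array. The design text writes VT1367 beside HW3826, the growth text gives VT1367 for maIs105, and it spells GR1395 as GR1935. All larvae had been starved overnight in M9 buffer and then grown for 4 hours at 25 °C. The series asks how large transgene arrays affect a phenotype of myrf-1. The labels do not say whether the libraries of a strain came from separate cultures, and a p-value here reflects only how far these libraries spread, which may be technical.

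In the worm most such receptors sit in the cilia of a small number of sensory neurons in the head and tail, and many are expressed in 1 neuron type or a few. Odour and pheromone signals then pass through G proteins, guanylyl cyclases and cyclic nucleotide-gated or TRPV channels. The families fall into the Str superfamily (srd, srh, sri, srj and str), the Sra superfamily (sra, srab, srb and sre), the Srg superfamily (srg, srt, sru, srv, srx and srxa) and families outside these. The ligands of most of the genes are unknown. In whole larvae, fewer cells of a type and less RNA per cell cannot be told apart.

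Most chemoreceptor genes were near the limit of detection. Of the 1308, 182 (13.9%) had no count in any library, 606 had 1 to 29 counts, 461 had 30 to 299, 45 had 300 to 999 and 14 had 1000 or more. The 59 genes held 59% of the 126980 counts of all chemoreceptor genes, and the 5 with the most summed counts held 29.3%. Library totals lay between 42593688 and 54957641 counts, so that 3 counts, taken as the floor of detection, correspond to 0.0546 to 0.0704 CPM (the count over the library total, times 1000000). This floor covers counting error only. Within a library the median count of the 59 genes was 90 to 128, and the lowest was 22. Just above the minimum lay srx-41 with 305 summed counts, srw-17 with 312 and srw-12 with 313, and just below it srt-28 with 297, srj-23 with 291 and srm-6 with 289. Without the GR1395 libraries, 7 of the 59 would have had under 200 counts in the other 4, the same minimum per library: sre-19, srbc-66, srx-41, srsx-27, srw-12, srw-17 and srg-69. No gene would have done so without the HW3826 libraries or without the N2 libraries.

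Levels per length are given as TPM (the count per base, scaled to a sum of 1000000 in each library), from the counts and the deposited gene lengths. The 59 genes lay between 1.07 (srw-17) and 50.9 TPM (srr-4), with a median of 2.44, against a median of 11.8 TPM for all genes tested. There were 23 genes at 1 to 2 TPM, 28 at 2 to 5 TPM and 8 above 5 TPM. The highest level was that of srr-4, which averaged 45.1 ± 1.59 TPM in HW3826, 67.2 ± 1.38 in GR1395 and 40.4 ± 2.41 in N2 (SD, n = 2 each). It alone gave 13.8% of all chemoreceptor counts. Next in the mean of the 6 libraries came srw-85 at 18.9 TPM, a mean that hides a level of 1.19 ± 0.246 in HW3826, 1.80 ± 0.360 in GR1395 and 53.7 ± 4.91 TPM in N2. In N2 srw-85 was thus the highest chemoreceptor gene by level. srv-1 followed at 17.1 TPM, srw-86 at 16.8 and str-176 at 10.8. srx-45 (7.09 TPM), srsx-34 (5.88) and srx-68 (5.37) closed the group above 5 TPM. The next 7 were close together, between 3.83 and 4.75 TPM: srh-237, srd-23, srab-12, sre-23, srx-19, srr-1 and srab-14.

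**Figure D1:**
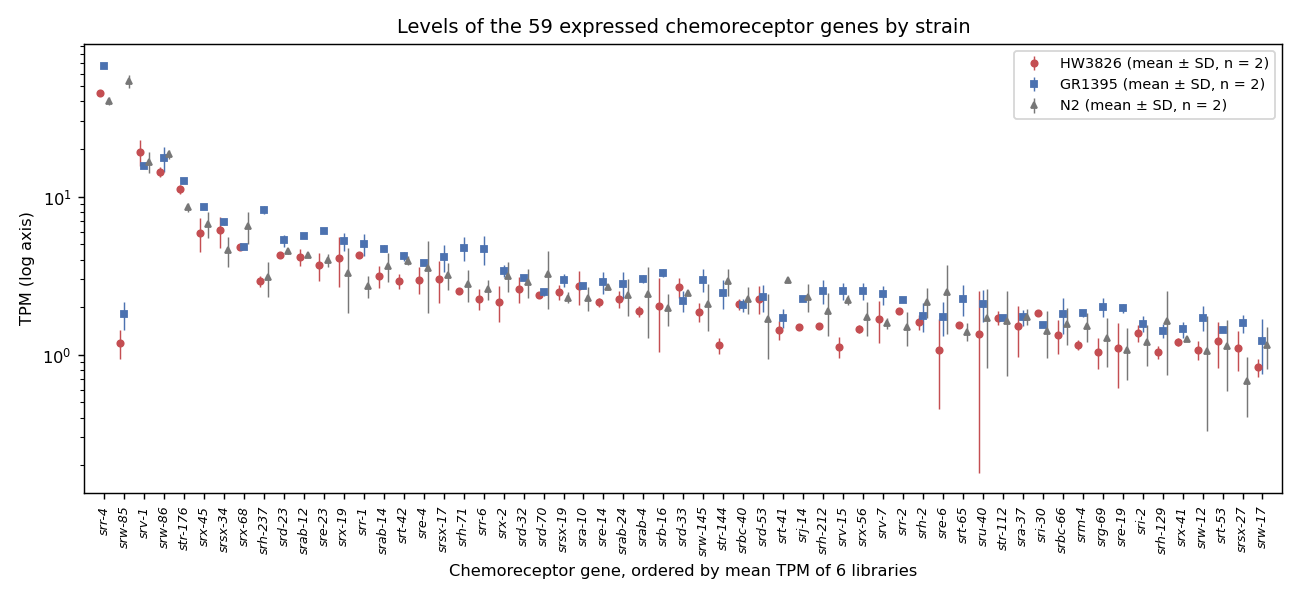
Level per length of each of the 59 genes (TPM, log axis) by strain, as mean ± SD of 2 libraries, ordered by the mean of all 6. srr-4 stands above the rest in HW3826 and GR1395, and srw-85 is below 2 TPM in both array strains but at 53.7 TPM in N2.

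The share of a family that reached the minimum differed widely. The small srr family had 4 of its 9 genes among the 59 (44.4%), srab had 4 of 23 and srsx 4 of 37. The large families had few: 5 of 220 srh genes, 3 of 193 str genes and 5 of 109 srw genes, and srz (63 genes) and srxa (17 genes) had none. By superfamily the count was 12 of 124 for Sra (9.68%), 15 of 309 for Srg (4.85%) and 16 of 580 for Str (2.76%). Chromosome V carried 39 of the 59 genes (66.1%), close to its 68.0% of all chemoreceptor genes and above its 24.8% of all genes. IV carried 8, II carried 6, and I, III and X carried 2 each. The median deposited length was 1056 bases, between 528 for srw-86 and 2845 for srsx-34, and the annotation gave a median of 6 exons. Another chemoreceptor gene lay directly beside 27 of the 59. In 3 places the neighbour was itself one of the 59: srd-32 with srd-33, srj-14 with srx-56, and srr-6 with srr-4, which lie 4004 bases apart.

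Some of the genes share exon bases with another coding gene, and for these the division of reads is uncertain, since the use of strand in counting is not given in the sources used here. On the same strand srsx-27 shared 576 bases with srsx-26, srw-12 shared 246 with srw-11 and srd-53 shared 120 with F13G3.12. On the opposite strand 13 genes overlapped a coding gene, the longest overlap being 490 bases between srab-14 and spi-1. The other 43 overlapped none.

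Against N2, HW3826 had 5 of the 59 genes lower and 1 higher by edgeR's quasi-likelihood test at an adjusted p under 0.05 over all 15024 genes tested. GR1395 had 8 higher and 3 lower. As shares of the 59, HW3826 had 8.47% lower and 1.69% higher, where 2.46% of all genes tested were called lower and 3.54% higher. In GR1395 13.6% were higher and 5.08% lower, where all genes tested gave 7.93% higher and 8.15% lower. Between the array strains 8 genes (13.6%) were lower in HW3826 and 0 higher, where 7.17% of all genes tested were lower and 7.33% higher. At an unadjusted p under 0.05 the same comparison had 22 of the 59 lower and 1 higher, where 2258 of all 15024 genes tested were lower and 2181 higher. At the adjusted threshold srv-1 was called higher without the low-count filter, with the length trend removed, in the fit of 2 strains only and in some leave-outs. DESeq2 and limma called 0 higher. Single libraries moved these counts. In HW3826 against N2 the 5 became 2 without HW3826 replicate 1, and the 1 became 0 without HW3826 replicate 2 or N2 replicate 2. In GR1395 against N2 the 8 became 2 without GR1395 replicate 1, 4 without N2 replicate 2 and 5 without GR1395 replicate 2, and the 3 became 1 without GR1395 replicate 1. Between the array strains the 8 became 4 without HW3826 replicate 1 or GR1395 replicate 1 and 5 without GR1395 replicate 2. Without the 7 genes that reached the minimum through GR1395, 7 of 52 (13.5%) were higher in GR1395 than in N2, and the other counts stayed as given. All counts together make 25 calls on 15 genes, and in every one the libraries of both strains did not overlap. With 2 libraries a strain a call nearly implies such a separation, so it adds no support of its own. Of the 25, 7 passed whichever single library was left out, and these concern srw-85, srh-237, srr-4 and str-144. The comparisons of HW3826 and GR1395 with N2 share the N2 libraries. With a median standard error of 0.23 to 0.24 on the log2 scale, against 0.12 for all genes tested, changes of the other 44 genes of the size called here could have gone undetected.

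**Figure D2:**
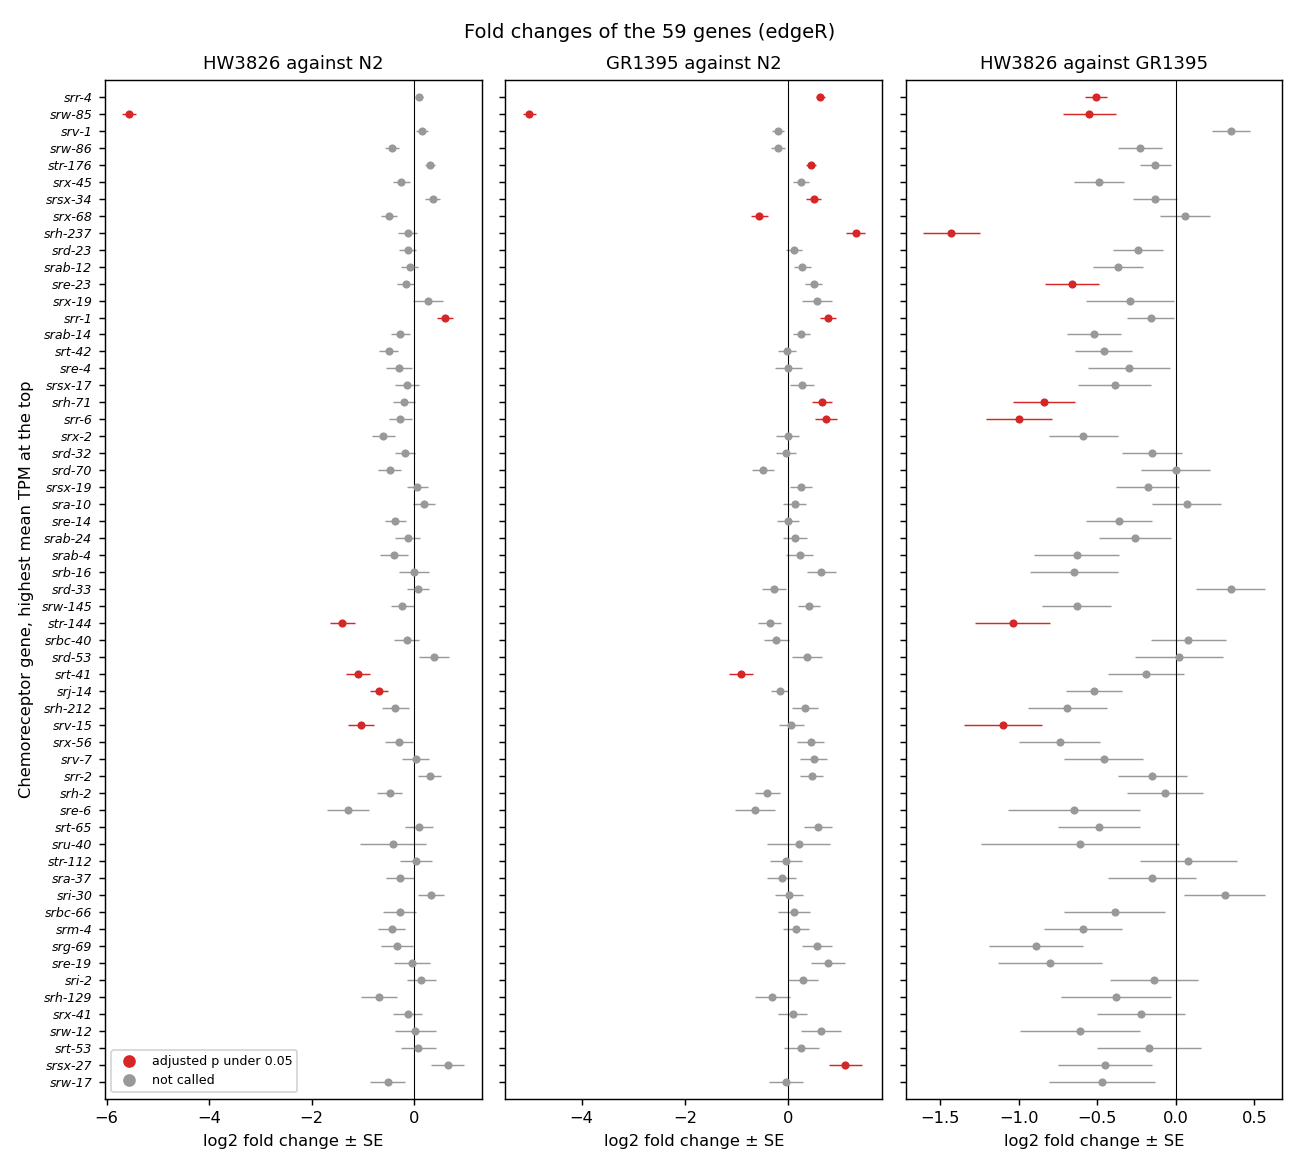
Log2 fold change ± SE of each of the 59 genes in the 3 comparisons, with genes at an adjusted p under 0.05 in red and the highest mean level at the top. srw-85 lies at -5.56 in HW3826 and -5.01 in GR1395, both against N2, far outside the other values, and in HW3826 against GR1395 50 of 59 values are below 0.

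srw-85 belongs to the srw family, whose proteins resemble neuropeptide receptors. The gene lies on chromosome V, 19429387 to 19431136 on the minus strand (WBcel235, the assembly behind ce11). It had 71 and 84 counts in HW3826, 146 and 93 in GR1395, and 3211 and 3204 in N2. Scaled by library total this was 1.33 and 1.76 CPM in HW3826, 2.66 and 1.97 in GR1395, and 75.4 and 69.9 in N2. Both array strains were thus far below N2 in every library, and both kept counts well above the floor of 3. The level was 47.2-fold lower in HW3826 than in N2 (log2 fold change -5.56, SE 0.14, adjusted p = 4.05e-11) and 32.2-fold lower in GR1395 (-5.01, SE 0.13, adjusted p = 7.92e-11). Over all alternatives the adjusted p stayed at or below 2.39e-08 for both. HW3826 was also below GR1395 (-0.55, SE 0.17, adjusted p = 0.0461), a call that ended without replicate 1 of either strain (adjusted p up to 0.413), in the fit of 2 strains only and with limma.

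No tested gene near srw-85 showed a fall of similar size. Within 40 kb on each side lie 24 other genes, of which 20 were tested. Against N2, HW3826 had 2 of them lower and 0 higher, and GR1395 had 1 lower and 1 higher. Of all genes tested, 2.46% were lower and 3.54% higher in HW3826, and 8.15% lower and 7.93% higher in GR1395. The gene beside srw-85 on its higher-coordinate side, C25F9.11, had 14.6 and 13.9 CPM in HW3826, 29.3 and 21.8 in GR1395, and 22.6 and 22.3 in N2. It was lower in HW3826 than in N2 by edgeR (log2 fold change -0.66, adjusted p = 0.00553), and the GR1395 libraries lay on both sides of N2. On the other side C25F9.2 had 3.8 and 2.43 CPM in HW3826, 8.24 and 3.55 in GR1395, and 1.20 and 1.70 in N2, so it was above N2 in all 4 array libraries. In GR1395 the difference passed (1.97, adjusted p = 0.0413), and this call ended without either HW3826 or either N2 library. The only other chemoreceptor gene of the window, srw-86, had 6.39 and 5.70 CPM in HW3826, 8.30 and 6.35 in GR1395, and 8.33 and 7.96 in N2, and passed in no comparison. The other calls against N2 in the window were C25F9.5 in HW3826 (-0.64, adjusted p = 0.012, lost without HW3826 replicate 1) and C25F9.14 in GR1395 (-0.44, adjusted p = 0.0213, lost without either GR1395 library or N2 replicate 2).

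**Figure D3:**
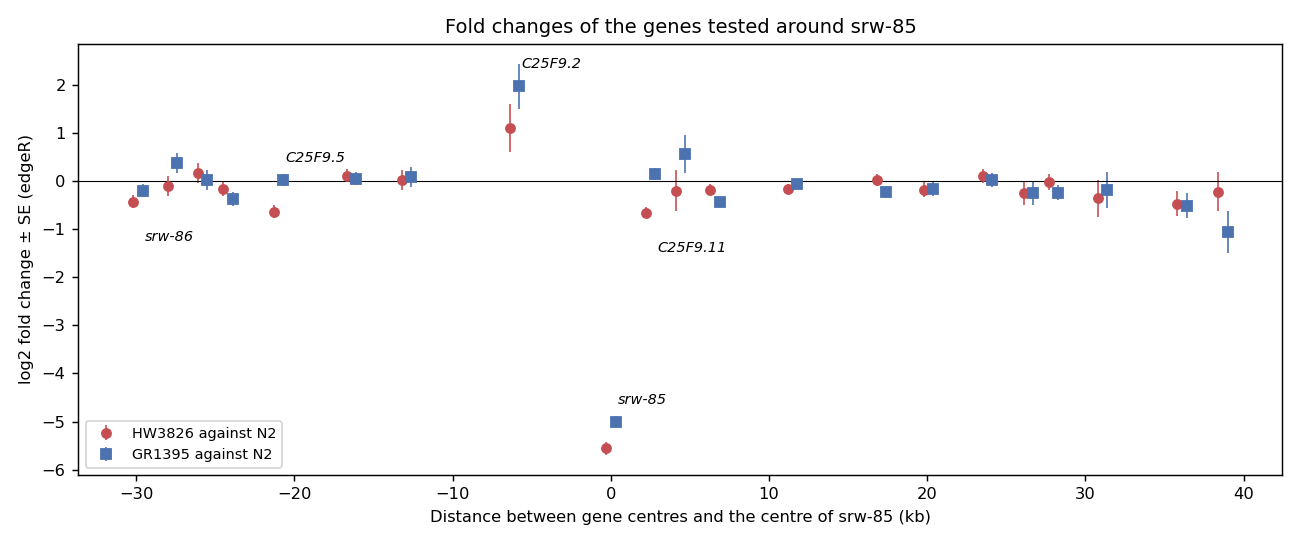
Log2 fold change ± SE of srw-85 and the 20 tested genes within 40 kb on each side, by distance between gene centres, for HW3826 against N2 (circles) and GR1395 against N2 (squares). srw-85 lies at -5.56 and -5.01, while no other gene of the window is called below -0.66.

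A second gene, srt-41 of the srt family (V 1799506 to 1803143), was lower in both array strains. srt-41 shares 170 exon bases with F36H9.10 on the opposite strand, so the division of its reads is uncertain. It had 1.09 and 1.30 CPM in HW3826, 1.27 and 1.52 in GR1395, and 2.56 and 2.55 in N2, and no array library reached N2. Against N2 it changed by -1.1 on the log2 scale in HW3826 larvae (SE 0.23, adjusted p = 0.0132), and by -0.92 in GR1395 larvae (SE 0.23, adjusted p = 0.0176). Either call ended without N2 replicate 2 or without replicate 1 of the array strain, at adjusted p of up to 0.153. srt-41 lies 1190 bases from hsp-16.2, a small heat shock gene, which had 5.90 and 6.64 CPM in HW3826, 31.6 and 18.9 in GR1395, and 5.66 and 5.23 in N2. In GR1395 hsp-16.2 was thus higher than in N2 (log2 fold change 2.16, adjusted p = 0.00122, lost without N2 replicate 2), the opposite direction to srt-41. Some hsp-16 genes closely resemble each other in sequence, and how reads were divided among such genes is uncertain. On the other side of the heat shock pair, srt-42 passed in no comparison. It lay at -0.50 in HW3826 and at -0.03 in GR1395, both on the log2 scale against N2.

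The genes higher in GR1395 than in N2 came from the srh, srr, srsx and str families. srh-237 (V 17090379 to 17091714) had the largest rise. It stood at 2.57 and 2.24 CPM in HW3826, 6.48 and 6.94 in GR1395, and 3.05 and 2.25 in N2, with both GR1395 libraries above the other 4. GR1395 was 2.46-fold above N2 (log2 fold change 1.30, SE 0.18, adjusted p = 0.000653), and HW3826 was 2.70-fold below GR1395 (-1.43, SE 0.18, adjusted p = 0.000215). Both calls held in all alternatives. A second srh gene, srh-71, had 2.10 and 2.14 CPM in HW3826, 4.42 and 3.41 in GR1395, and 2.77 and 2.09 in N2. Its values again set GR1395 above the other strains, and its calls (0.65 against N2, adjusted p = 0.044, and -0.84 in HW3826 against GR1395, adjusted p = 0.0138) were not stable: the first ended without either GR1395 library or N2 replicate 2, in the fit of 2 strains only and with DESeq2, and the second without either HW3826 library or GR1395 replicate 1.

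In the srr family 3 of the 4 expressed genes rose in GR1395. srr-4 (V 5019224 to 5022363) had 54 and 50.6 CPM in HW3826, 78.7 and 75.3 in GR1395, and 49.4 and 47.9 in N2. The libraries of each strain lay close together, and GR1395 was 1.53-fold above N2 (log2 fold change 0.62, SE 0.08, adjusted p = 0.00031) while HW3826 was 1.43-fold below GR1395 (-0.51, SE 0.07, adjusted p = 0.00061). Both srr-4 calls held in all alternatives. Its neighbour srr-6 had 2.02 and 2.45 CPM in HW3826, 5.31 and 3.89 in GR1395, and 2.32 and 3.03 in N2, with GR1395 again highest. srr-6 changed by 0.73 in GR1395 against N2 (adjusted p = 0.0299) and by -1.0 in HW3826 against GR1395 (adjusted p = 0.00666). Without GR1395 replicate 1 neither passed, and without N2 replicate 1 the first did not. srr-1, on another stretch of chromosome V, was higher than N2 in both array strains, with 5.55 and 5.36 CPM in HW3826, 7.06 and 5.54 in GR1395, and 3.90 and 3.29 in N2. Against N2 it rose by 0.60 on the log2 scale in HW3826 larvae (adjusted p = 0.0435, lost without either HW3826 library or N2 replicate 2, in the fit of 2 strains only, with DESeq2 and with limma), and by 0.77 in GR1395 larvae (adjusted p = 0.00744, lost without GR1395 replicate 1 or N2 replicate 2). The fourth gene, srr-2, passed in no comparison, at 0.30 in HW3826 and 0.45 in GR1395 against N2.

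The other 3 genes called higher in GR1395 were called less firmly. str-176 (IV 8460999 to 8463816) had 14.2 and 15.4 CPM in HW3826, 17.2 and 16.2 in GR1395, and 12.1 and 11.7 in N2, an ordered set with no overlap between strains. It rose by 0.44 in GR1395 against N2 (SE 0.10, adjusted p = 0.0102), a call lost without GR1395 replicate 1. srsx-34, the longest of the 59 genes, had 11.8 and 16 CPM in HW3826, 16.3 and 15 in GR1395, and 12.3 and 9.46 in N2, so that HW3826 overlapped both other strains. Its rise in GR1395 against N2 (0.49, adjusted p = 0.0421) ended without either GR1395 library or N2 replicate 2, and also when the length trend was taken out. srsx-27 had 1.5 and 0.985 CPM in HW3826, 1.62 and 1.90 in GR1395, and 1.01 and 0.589 in N2, and its GR1395 libraries lay above the other 4. Since srsx-27 is among the 7 genes that reached the count minimum through GR1395, its difference in GR1395 against N2 (1.1, adjusted p = 0.0341) is a description only. It was lost without either GR1395 library or N2 replicate 2 and with DESeq2, and the gene shares exon bases with srsx-26. Against these rises stood srx-68, which had 4.07 and 3.96 CPM in HW3826, 4.02 and 3.89 in GR1395, and 6.43 and 4.86 in N2. Its fall in GR1395 against N2 (-0.56, adjusted p = 0.0349) was lost without either GR1395 library or N2 replicate 1, with DESeq2 and with limma.

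In HW3826 the firmest fall after srw-85 was that of str-144 (V 8070643 to 8072147). It had 1.03 and 1.19 CPM in HW3826, 2.02 and 2.69 in GR1395, and 3.26 and 2.59 in N2. HW3826 was below all other libraries, 2.63-fold under N2 (log2 fold change -1.40, SE 0.24, adjusted p = 0.00368), and this call held in all alternatives. Against GR1395 the change was -1.04 (SE 0.24, adjusted p = 0.0123), lost without HW3826 replicate 1 or GR1395 replicate 2. srv-15 (IV 15906582 to 15910091) had 1.03 and 0.817 CPM in HW3826, 1.89 and 2.22 in GR1395, and 1.76 and 2.05 in N2. It was likewise lowest in HW3826, by -1.04 against N2 (adjusted p = 0.0292, lost without either HW3826 library or N2 replicate 2) and -1.1 against GR1395 (adjusted p = 0.0113, lost without HW3826 replicate 2 or GR1395 replicate 2). srj-14 had 2.40 and 2.45 CPM in HW3826, 3.66 and 3.49 in GR1395, and 4.37 and 3.44 in N2. Its change of -0.69 in HW3826 against N2 (adjusted p = 0.0391) ended in 5 of 6 leave-outs, all but that of N2 replicate 2, and in the fit of 2 strains only, with DESeq2 and with limma. sre-23, which shares 12 exon bases with nol-16 on the opposite strand, had 2.92 and 3.85 CPM in HW3826, 5.46 and 5.54 in GR1395, and 3.94 and 3.66 in N2. It passed only in HW3826 against GR1395 (-0.66, adjusted p = 0.0183), where the call ended without HW3826 replicate 1 or either GR1395 library.

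**Figure D4:**
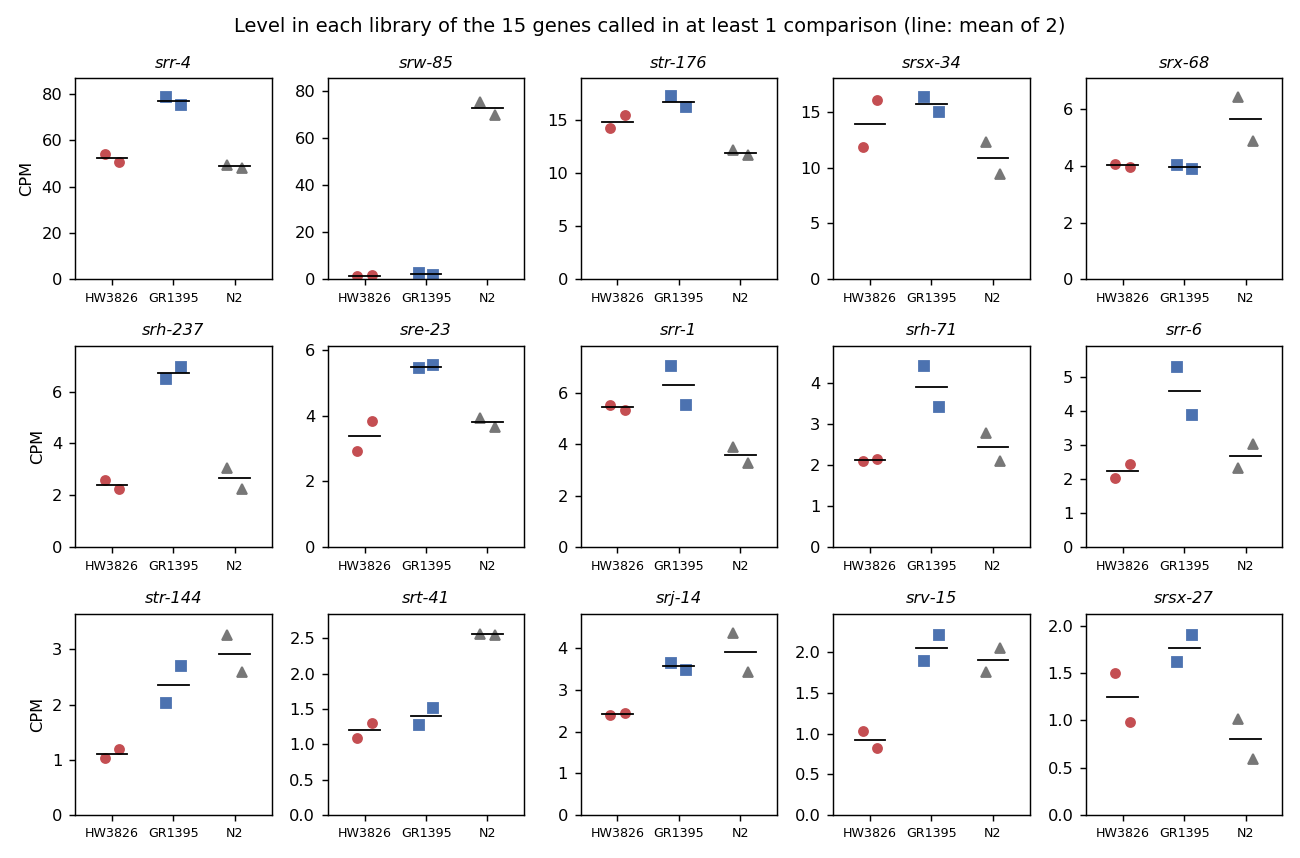
Level in each library (CPM, axis from 0, a different scale per gene) of the 15 genes called in at least 1 comparison, with a line at the mean of both libraries of a strain. srw-85 is near 0 in HW3826 and GR1395 and above 69 CPM in N2, srh-237, srr-4 and srr-6 are highest in GR1395, and str-144 and srv-15 are lowest in HW3826.

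Only 1 receptor among the 59 has a ligand class that is well known. srbc-66, which codes for a dauer pheromone receptor of the ASK neurons, had 41 and 51 counts in HW3826, 56 and 69 in GR1395, and 55 and 43 in N2. The strains overlapped, and it passed in no comparison (log2 fold change -0.28 in HW3826 and 0.11 in GR1395 against N2). odr-10, the diacetyl receptor of the AWA neurons, carries no family name of this kind and is not among the 59. It had 5.43 and 5.22 CPM in HW3826, 8.02 and 7.43 in GR1395, and 5.07 and 5.43 in N2. Its values set GR1395 above the other strains (0.51 against N2, adjusted p = 0.0217, lost without either GR1395 or either N2 library).

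The 44 genes that passed in no comparison had log2 fold changes between -1.29 (sre-6) and 0.39 (srd-53) in HW3826 against N2, and between -0.64 (sre-6) and 0.76 (sre-19) in GR1395 against N2. In HW3826 against GR1395 they lay between -0.89 (srg-69) and 0.35 (srv-1). Since sre-19 and srg-69 are among the 7 genes that reached the count minimum through GR1395, their values here are a description only. Some of the 44 spread widely within a strain. sru-40 had 23 and 85 counts in HW3826, 110 and 67 in GR1395, and 83 and 44 in N2, so each strain held a high and a low library. srv-1, next to srw-85 in the order of levels, had 15.6 and 20.1 CPM in HW3826, 14.8 and 14 in GR1395, and 17.3 and 14.8 in N2. It had the highest value of the 59 in HW3826 against GR1395 (0.35, adjusted p = 0.065), with neighbouring libraries of the strains less than 1 CPM apart.

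Over the whole list the median log2 fold change was -0.18 in HW3826 against N2, with 19 genes above 0 and 40 below, beside -0.01 for all genes tested. In GR1395 against N2 it was 0.20, with 39 above and 20 below, beside 0.01. In HW3826 against GR1395 it was -0.39, with 9 above and 50 below, beside -0.01. Without the 7 genes that reached the minimum through GR1395 these medians were -0.19, 0.18 and -0.36, and 33 of 52 genes were above 0 in GR1395 against N2. The 344 chemoreceptor genes under the count minimum that could be tested had medians of -0.15, 0.28 and -0.46 in the same order of comparisons. The expression filter can keep such a gene through the strain where it is high, so these 344 medians are a description only. The N2 libraries differed among themselves: relative to the mean of all libraries, the median gene of the 59 was at -0.252 and -0.129 in HW3826, at 0.207 and 0.243 in GR1395, and at 0.14 in N2 replicate 1 and -0.201 in N2 replicate 2, on the log2 scale. Without N2 replicate 1 the median of HW3826 against N2 was 0.00, and without N2 replicate 2 that of GR1395 against N2 was 0.08. The median of HW3826 against GR1395 stayed between -0.48 and -0.30 over all alternatives.

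**Figure D5:**
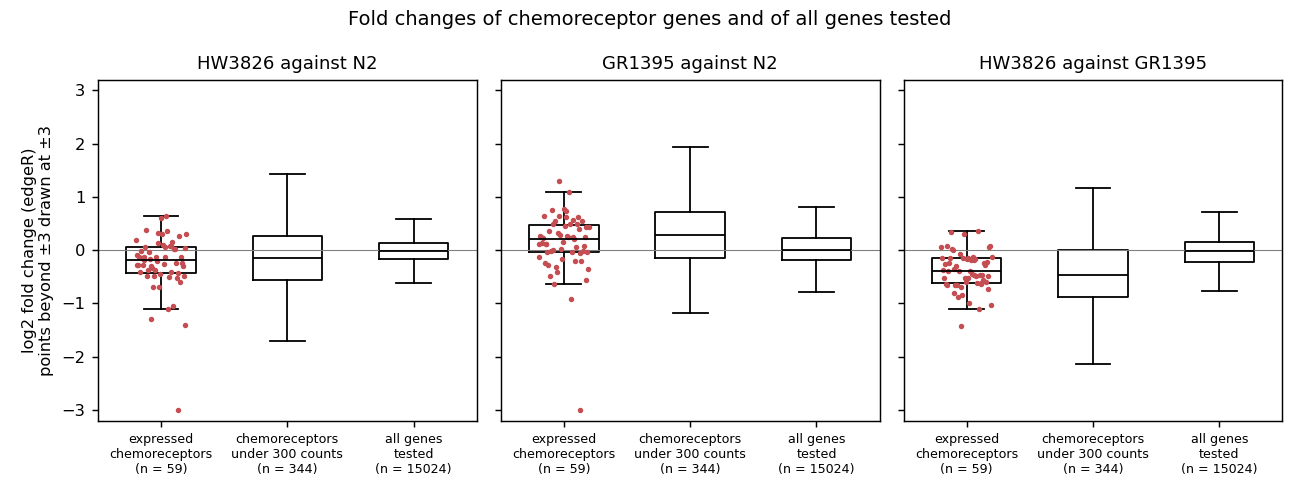
Log2 fold changes of the 59 expressed chemoreceptor genes (points and box), the 344 tested chemoreceptor genes under 300 counts and all 15024 genes tested, in the 3 comparisons. Boxes span the quartiles with the median as a line, and the medians of the 59 are -0.18, 0.20 and -0.39, beside -0.01, 0.01 and -0.01 for all genes.

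Summed over the 59 genes the level was 201.4 and 218.9 CPM in HW3826, 279.4 and 272.3 in GR1395, and 310.8 and 267.7 in N2. Most of the distance of HW3826 from N2 in this sum was srw-85: without it the sums were 200 and 217.2 CPM in HW3826, 276.8 and 270.3 in GR1395, and 235.4 and 197.9 in N2. With srw-85 left out, HW3826 lay within the range of N2 and GR1395 above it.

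Genes that work with the receptors were counted by lists of their functions. Of 43 tested genes for chemosensory signalling, 6 were higher (14%) and 1 lower (2.33%) in GR1395 against N2, where all genes tested gave 7.93% and 8.15%. Over the alternatives other than leave-outs, the 6 ranged from 2 to 8, with 4 when the length trend was removed. The 6 became 0 without N2 replicate 2 or GR1395 replicate 1, 1 without GR1395 replicate 2 and 3 without either HW3826 library. In HW3826 against GR1395, 5 were lower (11.6%), where 7.17% of all genes tested were lower. Leaving out any 1 library of these strains lowered that count. In HW3826 against N2 edgeR called 0, and 1 higher without N2 replicate 1 or when the length trend was taken out. Among them gpc-1, a G protein gamma subunit of sensory neurons, had 8.79 and 9.26 CPM in HW3826, 13.4 and 13.9 in GR1395, and 11.2 and 9.16 in N2. GR1395 was thus the highest strain for gpc-1, by 0.38 against N2 (adjusted p = 0.0423, lost in 5 of 6 leave-outs, the exception being N2 replicate 1), and HW3826 was lower than GR1395 by edgeR (-0.55, adjusted p = 0.00695). Of 32 tested guanylyl cyclase genes, 13 rose (40.6%) and 2 fell (6.25%) in GR1395 and 3 rose (9.38%) in HW3826, both against N2. All genes tested gave 7.93% higher and 8.15% lower in GR1395, and 3.54% higher in HW3826. Over the alternatives other than leave-outs, the 13 in GR1395 ranged from 6 to 13, with 8 when the length trend was removed. The 3 became 1 without HW3826 replicate 2. The genes that fell, gcy-36 (-0.56) and gcy-37 (-0.43), code for soluble cyclases of the oxygen-sensing neurons. Neither fall passed without GR1395 replicate 1, nor that of gcy-37 without N2 replicate 1. In HW3826 against N2 edgeR called 0 cyclase genes lower with all libraries and the main settings. With the length trend removed it called 4 lower and 2 higher. It called 3 lower without the low-count filter and 1 lower in the fit of 2 strains only. In HW3826 against GR1395, 6 of the 32 were lower (18.8%), where 7.17% of all genes tested were lower. Leaving out any 1 library of these strains lowered this count too. Among the 6, gcy-15, a receptor-type cyclase gene, had 15.1 and 14.9 CPM in HW3826, 28.7 and 26.8 in GR1395, and 18.6 and 17.5 in N2. It rose by 0.58 in GR1395 against N2 (adjusted p = 0.00132) and was lower in HW3826 than in GR1395 by 0.84 on the log2 scale (-0.84, adjusted p = 6.65e-05), with both calls kept in all leave-outs. Without N2 replicate 2 the 13 cyclase genes that rose in GR1395 became 5, without GR1395 replicate 1 they became 3 and without GR1395 replicate 2 they became 6.

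Of 44 genes for sensory cilia, 9 rose (20.5%) and 0 fell in GR1395 against N2, where 7.93% of all genes tested were higher. The count of 9 became 0 without N2 replicate 2 and 1 without either GR1395 library, and 3 with a trend of the values with gene length removed. In HW3826 against GR1395, 7 were lower (15.9%) and 1 higher (2.27%), where all genes tested gave 7.17% and 7.33%. The 7 became 0 without replicate 1 of either strain, 2 without GR1395 replicate 2 and 4 without HW3826 replicate 2. In HW3826 against N2, 1 rose, a count that became 2 without N2 replicate 1 or HW3826 replicate 1 and 0 without HW3826 replicate 2. A list of 18 transcription factors for sensory neurons held genes not specific to these neurons. In GR1395 against N2, 5.56% of the 18 were higher and 5.56% lower, where all genes tested gave 7.93% and 8.15%. Of the 18, mef-2 rose (0.43, adjusted p = 0.00381) and nhr-2 fell (-1.09, adjusted p = 0.00512, lost without GR1395 replicate 1) in GR1395 against N2. In HW3826 against N2 edgeR called 0 with all libraries.

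Markers of neurons and of other tissues, on short lists, moved beside these results. Of all genes tested, 3.54% were higher and 2.46% lower in HW3826 against N2, and 7.93% and 8.15% in GR1395 against N2. Of 15 pan-neuronal genes, 1 rose in HW3826 (6.67%) and 3 rose in GR1395 (20%), both against N2. Their summed level was 2400 and 2380 CPM in HW3826, 2710 and 2650 in GR1395, and 2510 and 2300 in N2. Over the alternatives other than leave-outs, the 3 ranged from 0 to 5 and the 1 from 0 to 2. Both were 0 with the length trend removed. The 3 became 0 without N2 replicate 2 or GR1395 replicate 1 and 1 without GR1395 replicate 2, and the 1 became 0 if N2 replicate 2 or any 1 HW3826 library was left out, and 3 without N2 replicate 1. Of 9 intestinal genes, 1 rose in HW3826 (11.1%), and 1 rose (11.1%) and 3 fell (33.3%) in GR1395, both against N2. Their sums were 11000 and 11000 CPM in HW3826, 8250 and 8600 in GR1395, and 10300 and 9930 in N2. Without GR1395 replicate 1 the 3 became 1 and the 1 in GR1395 became 0. Of 6 genes of the amphid sheath glia, which ensheathe the sensory endings, vap-1 was lower in HW3826 than in N2 (-0.64 on the log2 scale, adjusted p = 0.00044). Another, ver-1, was higher in both array strains. It had 0.45 and 0.44 CPM in HW3826, 1.13 and 0.381 in GR1395, and 0.0939 and 0.0218 in N2. In N2 ver-1 was thus near the floor of 3 counts. Both ver-1 calls ended without N2 replicate 2. The one in HW3826 also ended without either HW3826 library, and the one in GR1395 without GR1395 replicate 1. With a mean of at least 1 CPM required, 0 genes of this list were called higher against N2. Of 6 epidermal genes edgeR called 0 with all libraries, and 2 higher in each array strain against N2 without N2 replicate 1. In HW3826 against N2 edgeR called 0 of 7 body wall muscle genes, 0 of 6 pharynx genes and 0 of 8 germ cell genes with all libraries. Without N2 replicate 1 it called 1 muscle and 1 pharynx gene higher, and DESeq2 and edgeR without the low-count filter called 1 muscle gene. In GR1395 against N2 pharynx had 3 higher, which became 0 without either GR1395 library and 1 without N2 replicate 2. Germ cells had 2 lower, which became 0 without N2 replicate 2 and 1 without either HW3826 library or GR1395 replicate 1. Muscle had 2 higher, which became 1 without any 1 HW3826 or GR1395 library, and 1 lower, which became 0 without either GR1395 library or N2 replicate 2 and 2 without N2 replicate 1. Of 2 coelomocyte genes edgeR called 0 against N2, and 1 lower in HW3826 than in GR1395, lost without HW3826 replicate 1 or either GR1395 library. As shares in GR1395 against N2, 50% of pharynx genes were higher, 25% of germ cell genes lower, and 28.6% of muscle genes higher and 14.3% lower. In HW3826 against GR1395, 4 intestinal genes (44.4%), 2 germ cell genes (25%) and 1 muscle gene (14.3%) were higher, where all genes tested gave 7.33%. There 1 pan-neuronal gene (6.67%) was lower, where all genes gave 7.17%. The germ cell, muscle and pan-neuronal calls, and that of intestinal asp-1, ended in some leave-outs. No gene of these lists was at 0 in all libraries. The part of these markers in the chemoreceptor results was not tested.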

How the data were processed

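The authors deposited raw counts per gene for 6 libraries and a length per gene in bases, per the file headers. They also deposited log2 values, which equalled log2 of the count scaled to the mean library total, plus 8, and so add nothing to the counts. Per the labels' protocols, library preparation used Illumina's stranded mRNA kit. The submitters' processing notes name HISAT2 1.10.0 and ce11. How reads were assigned to genes, and whether by strand, is not given in the sources used here. Names and positions came from the Ensembl annotation of WBcel235, which named 20105 of 20190 genes.

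Counts were tested with edgeR 4.0.16 (R 4.3.3, limma 3.58.1): TMM scaling, the default expression filter (15024 genes kept, all 59 chemoreceptor genes among them), robust quasi-likelihood fits with 1 coefficient per strain over all 6 libraries, 3 residual degrees of freedom, and Benjamini-Hochberg adjustment over every tested gene (threshold 0.05, no minimum fold). CPM is the count scaled by the library total. TPM was computed from counts and deposited lengths. Alternatives were upper-quartile factors, no filter, a mean of at least 1 CPM, removal of a length trend, a replicate block, fits of 2 strains only, DESeq2 1.42.0, limma on the deposited log2 values, and leaving out each library in turn. The context lists were put through the same alternatives, and counts were also made without 7 genes that reached the minimum through GR1395. Both were chosen after seeing the data.

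Named genes were all called ones without overlap between strains, the 15 highest by TPM, receptors of known role or neurons, genes around the count minimum, neighbours of genes with a log2 change over 2, and odr-10. sru-40, the genes at the ends of a range and the genes named from the context lists were chosen after their values were seen. The members and lists were chosen with earlier results of these data known. Protein and promoter sequences were not used here.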

Additional observations from a re-analysis of the deposited data

How the results depend on the processing

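None of the 25 calls on single genes changed direction in any of 14 alternatives. Of their 350 values, 283 passed the threshold and 67 did not, and 7 calls passed in all alternatives. For HW3826 against N2, the count of genes called higher (1) was 0 with the replicate block, in the fit of 2 strains only, with DESeq2 and with limma, and 0 to 1 when 1 library was left out. The count lower (5) was 3 with the replicate block and 2 to 4 with 1 library left out. For GR1395 against N2, the count higher (8) was 5 with the replicate block and 2 to 9 with 1 library left out, and the count lower (3) was 1 to 3 with 1 library left out. For HW3826 against GR1395, the count higher (0) was 1 without the low-count filter, with the length trend removed, in the fit of 2 strains only and in some leave-outs (0 to 1), and that gene was srv-1. The count lower (8) was 4 to 12 with 1 library left out. The replicate block ended 8 of the 25 calls: srr-6, srh-71, srx-68 and srsx-34 in GR1395 against N2, srv-15, srj-14 and srr-1 in HW3826 against N2, and srw-85 in HW3826 against GR1395. The cause of these changes was not tested. Deviations of same-numbered libraries correlated at -0.184 (HW3826 and N2), 0.0135 (GR1395 and N2) and 0.00974 (GR1395 and HW3826). The labels do not say whether same-numbered libraries were handled together, and these values cannot settle it. With 2 libraries a strain and a median of 90 to 128 counts per gene, small changes were not detectable at this depth.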

Other observations

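Some chemoreceptor genes under 300 summed counts also passed the edgeR test, on few reads. Since the expression filter can keep such a gene through the strain where it is high, their numbers of calls are a description only. Of the 344 tested, 1 was higher and 3 were lower in HW3826 against N2, 12 higher and 1 lower in GR1395 against N2, and 5 higher and 14 lower in HW3826 against GR1395. In GR1395 against N2 these are 3.49% and 0.291%, where all genes tested gave 7.93% higher and 8.15% lower. In HW3826 against GR1395 they are 1.45% and 4.07%, where all genes tested gave 7.33% and 7.17%, and in HW3826 against N2 0.291% and 0.872%, where they gave 3.54% and 2.46%. srg-26 had 50 and 78 counts in HW3826, 6 and 7 in GR1395, and 10 and 7 in N2, so that HW3826 stood alone (log2 fold change 2.71 against N2, adjusted p = 0.00335, and 3.34 against GR1395, adjusted p = 0.000575). srt-47 had 26 and 9 counts in HW3826, 56 and 37 in GR1395, and 92 and 67 in N2, with HW3826 lowest (-2.39 against N2, adjusted p = 0.00305). srg-17 had 18 and 17 counts in HW3826, 99 and 45 in GR1395, and 13 and 13 in N2, with GR1395 highest (2.18 against N2, adjusted p = 0.00404, lost without GR1395 replicate 1). srr-3, a further member of the srr family, had 44 and 41 counts in HW3826, 54 and 45 in GR1395, and 18 and 19 in N2, above N2 in all 4 array libraries (1.16 in GR1395 against N2, adjusted p = 0.0337, lost without either GR1395 or either N2 library). These genes were chosen after their values were seen.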
